A study of Drosophila melanogaster with 23 samples.

Results

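The thin filament of muscle is described here through 10 genes measured in hearts of Drosophila melanogaster. They are 4 muscle actin genes (Act57B, Act87E, Act79B and Act88F), the tropomyosin genes Tm1 and Tm2, the troponin T gene up, the troponin I gene wupA, the tropomodulin gene tmod, and flr, which encodes the fly homologue of actin-interacting protein 1. The genes were chosen by symbol for their known role, and all 10 were found in both tables of read counts, among 17103 symbols in the w1118 table and 17104 in the attp2 table. The study sequenced bulk RNA of hearts removed from flies, in 23 libraries. In the w1118 table, 4 libraries came from flies aged 5 weeks and 4 from flies aged 1 week. The other table held 5 libraries of LamC RNAi at 1 week, 5 of attp2 at 5 weeks and 5 of attp2 at 1 week. w1118 is a common laboratory strain with a mutant white gene, attp2 is labelled with the name of a landing site that is widely used for RNAi transgenes, and both strains served as controls. The RNAi flies are labelled as attp2 with RNAi against LamC, the A-type lamin gene, driven by the Hand promoter, which is active in cardiomyocytes and in the pericardial cells beside them. The stated aims were to find age changes in w1118, those that attp2 has in common, and genes that respond both to age and to LamC RNAi. The labels do not say whether the control flies carried a Hand driver, what sex the flies were, how many hearts made up a library, or whether libraries of a group came from separate animals. The p-values therefore refer to the variation among the libraries as made, some of which may be technical.

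A thin filament is a double-stranded polymer of actin with tropomyosin along its groove and the troponin complex bound at regular intervals. Troponin C binds calcium, troponin I holds the filament in its inhibited state at low calcium, and troponin T ties both to tropomyosin, so that calcium lets myosin heads reach actin and the heart contracts. Tropomodulin caps the pointed end of the filament and so limits its length, while actin-interacting protein 1 works with cofilin to take actin filaments apart. Flies have separate genes for the actins of different muscles. Act57B and Act87E are known from larval, visceral and cardiac muscle, Act79B from the tubular muscles of the adult thorax and legs, and Act88F from the indirect flight muscle.

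Total counts per library, given in units of 1e+06 reads, ran from 21.8 to 48.5 in w1118 at 5 weeks, 33.4 to 52.5 in w1118 at 1 week, 48.1 to 74.2 in the libraries labelled LamC RNAi, 48.3 to 90.0 in attp2 at 5 weeks and 45.1 to 77.1 in attp2 at 1 week. The targeted gene, LamC, had 155, 199.5, 87.4, 172 and 132 CPM (the read count over the effective library size, in units of 1e+06 reads) in the libraries labelled LamC RNAi, against 186, 222, 138, 148 and 163 CPM in attp2 at 1 week. These groups overlapped, with a two-sided exact permutation p of 0.405. The log2 difference in the edgeR fit was -0.20, with a 95% interval of -0.63 to 0.23. A lower whole-heart level of the target was thus neither shown nor excluded, and LamC RNAi names these libraries by their label only. Of 12 markers of heart cells, Doc2 was at or near 0 in all 23 libraries, and Doc1 and prc were low, with group means of 0.799 to 1.41 CPM and 0.841 to 1.28 CPM. The other 9, Hand among them, had higher group means. Hand supplied most of the sum of the list, with group means of 266 to 548 CPM. Over all 12 markers, the summed level ranged from 579 to 763 CPM in w1118 at 5 weeks and from 629 to 762 CPM at 1 week. It ranged from 415 to 595 CPM in the libraries labelled LamC RNAi, from 322 to 486 CPM in attp2 at 5 weeks and from 382 to 558 CPM in attp2 at 1 week. The 9 markers of fat body and oenocytes were the most abundant of the lists of other cell types, with a sum between 97300 and 260200 CPM per library, and in attp2 their sums ranged from 137600 to 202900 CPM at 5 weeks and from 189700 to 260200 CPM at 1 week. In 4 libraries of the attp2 table, digestive enzyme genes of the gut stood apart, with sums of 12730 CPM (attp2 at 5 weeks, replicate 3), 8722 CPM (attp2 at 1 week, replicate 3), 673 CPM (attp2 at 5 weeks, replicate 4) and 536 CPM (LamC RNAi, replicate 3), against at most 102 CPM in the table's other libraries. Results on members and on related genes named below that change their call without these 4 libraries are given both ways.

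The members lie on 3 autosomal arms and the X. In the BDGP6.54 annotation, Act57B spans chr2R:20944021-20946431 on the plus strand, Act87E chr3R:13425983-13428375, Act88F chr3R:15439969-15442177 and Act79B chr3L:21985210-21987190, all plus. Tm1 (chr3R:15278220-15308779) and Tm2 (chr3R:15310193-15315197) are neighbours on the plus strand of one arm. The troponin genes are both on the X and on the minus strand, up at chrX:13593474-13602578 and wupA at chrX:18105568-18116922. The last members are tmod (chr3R:30532607-30578905, plus) and flr (chr3L:13412843-13416453, plus). Exons of Act87E and Tm1 overlap an antisense gene, and how the counting treated strand is not stated, so their reads may include those of the antisense partner. An exon of Act57B overlaps snoRNA:660 on the same strand, and how reads shared by both were counted is not stated either. Actin genes also share long stretches of coding sequence, so reads may have been split between them in ways the tables do not show.

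Per kilobase of exon, Act57B stood far above the other members in every group. It averaged 1014 ± 202 CPM per kilobase (SD, n = 4) in w1118 at 5 weeks and 1423 ± 95.8 (n = 4) in w1118 at 1 week, 959 ± 111 (n = 5) in the libraries labelled LamC RNAi, 754 ± 73.1 (n = 5) in attp2 at 5 weeks and 912 ± 200 (n = 5) in attp2 at 1 week. The troponin T gene up came next, though in w1118 at 5 weeks it lay within its spread of wupA (308 ± 59.3 for up and 302 ± 41.7 for wupA, CPM per kilobase, SD, n = 4). Then came wupA and Tm2, which lay within their spread of each other in attp2 at 1 week (236 ± 37.0 for wupA and 237 ± 29.8 for Tm2, CPM per kilobase, SD, n = 5). Act87E came after them, at 49.3 to 93.7 CPM per kilobase as group means, then flr and Tm1, whose means differed by less than the larger of their SDs in every group but w1118 at 1 week (88.8 ± 12.8 for flr and 68.5 ± 4.83 for Tm1). The capping gene tmod was lower still (22.4 to 40.6), Act79B reached 1.07 to 2.49 and Act88F 0.219 to 2.11 CPM per kilobase. Tm1 has 18 annotated transcripts, and its place depends on the length used: per kilobase of the longest transcript of each gene it moved up to the fifth place, ahead of Act87E.

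Shares among the 4 muscle actins were taken from levels per kilobase of exon, not from plain counts. On that scale Act57B made up 93.3% ± 0.298 in w1118 at 5 weeks and 93.5% ± 0.132 in w1118 at 1 week (SD, n = 4 each). Its share was 92.3% ± 0.706 in the libraries labelled LamC RNAi, 93.7% ± 0.486 in attp2 at 5 weeks and 93.1% ± 0.466 in attp2 at 1 week (SD, n = 5 each). Act87E supplied nearly all of the rest, from 5.38% to 8.61% per library. Act79B took 0.0517% to 0.204% per library and Act88F at most 0.478%, in w1118 at 1 week, replicate 4. The heart samples held muscle actin RNA mainly of a single gene in every group. The cytoplasmic actin gene Act5C was of the same order as Act57B, with group means of 777 to 1512 CPM per kilobase.

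**Figure D1:**
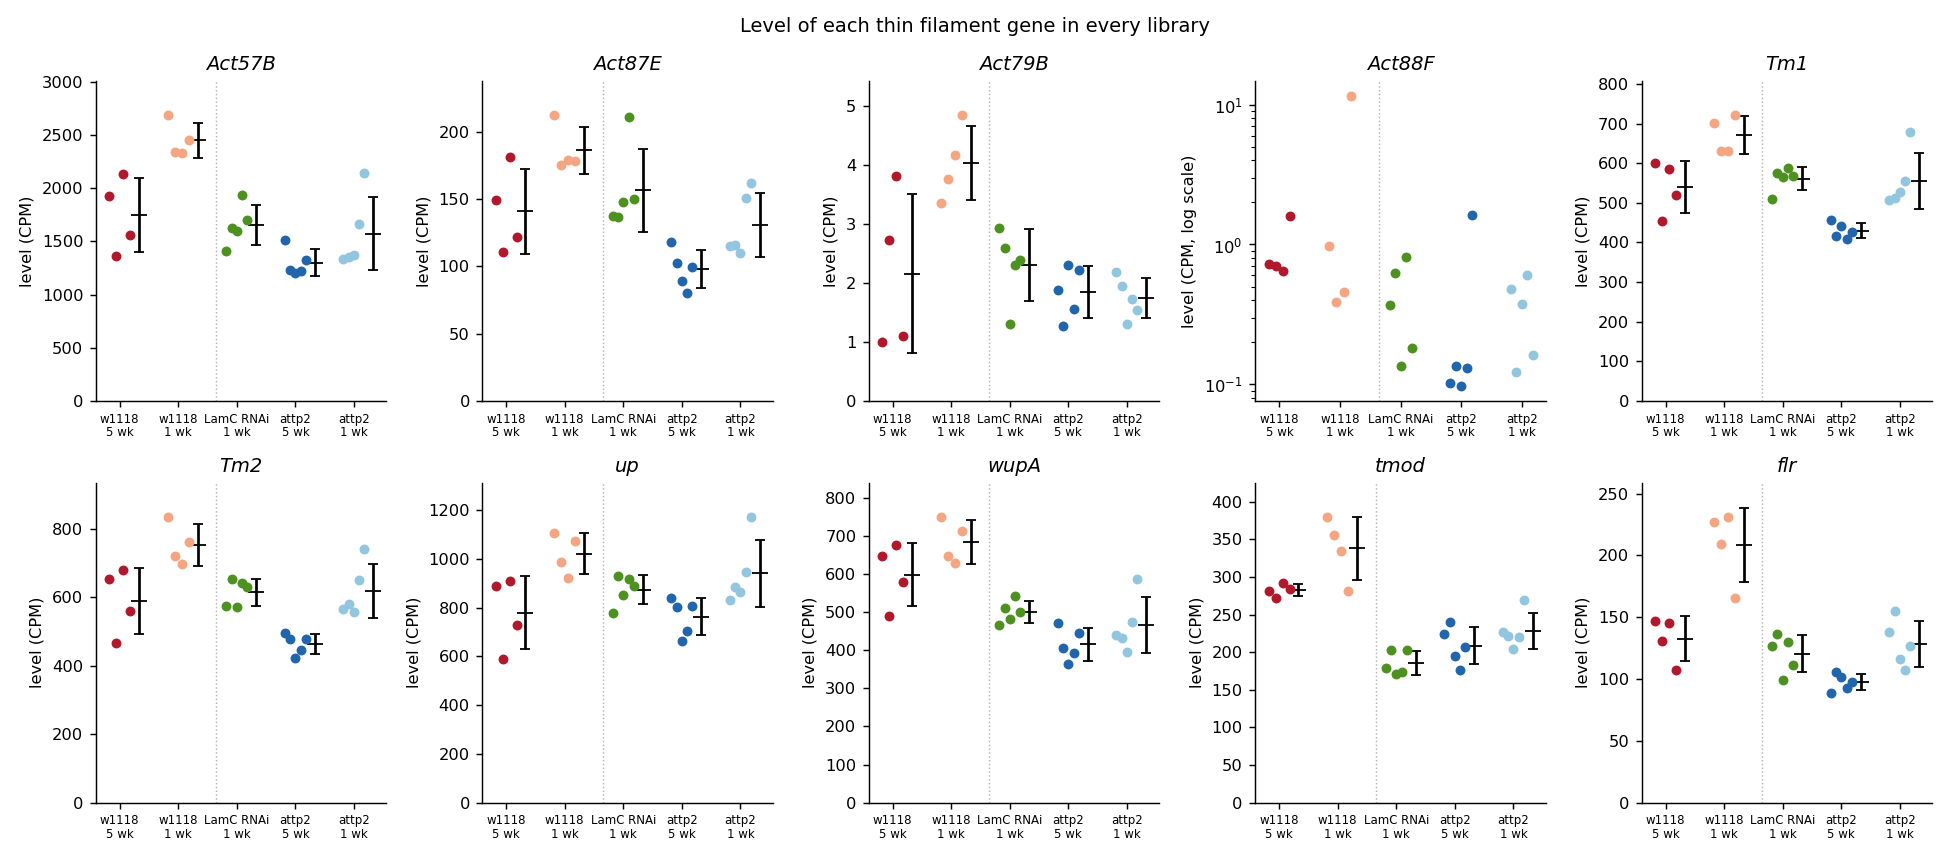
Level of each gene in every library (points; CPM, scaled within each table) for the 5 groups, with the group mean and SD to the right of the points except for Act88F, which is on a log axis. The dotted line parts the separately scaled w1118 and attp2 tables. The tropomyosins and flr lie lower at 5 weeks than at 1 week in both strains, and single libraries set the spread of Act88F.

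With age, the thin filament genes lay mostly lower in both strains, by modest amounts. In w1118, all 10 log2 fold changes of 5 weeks against 1 week were below 0, with a median of -0.40, against 0.01 over all 9631 genes tested. Only flr passed the test (edgeR's quasi-likelihood test with Benjamini-Hochberg adjustment over all genes tested, threshold 0.05, used for all adjusted p-values here unless DESeq2 is named). That is 1 of 10 members, where 3.7% of all genes tested were called lower and 5.21% higher. An unadjusted p under 0.05 was found for 6 of the 10. The share of all genes under that unadjusted threshold was not taken, so such counts, here and below, have no background to be set against. For 5 of the 10 (Act57B, Tm1, Tm2, up and flr) each library at 5 weeks lay below each library at 1 week, as it did for 7.91% of all genes. In attp2, 8 of 10 were below 0 with a median of -0.29, against 0.03 over 10044 genes, and 4 of the 10 fell: Tm2, flr, Tm1 and up. Of all genes tested in attp2, 10.5% were called lower and 9.6% higher. The ages did not overlap for 3 of the 10 (Tm1, Tm2 and flr), against 8.7% of all genes in the lower direction. DESeq2 called 2 members lower in w1118 and 5 in attp2, and of all genes with an adjusted p it called 7.61% lower in w1118 and 13.9% in attp2. All 10 members passed the filter on low counts in both tables, and no member was called higher with age in either strain, in edgeR or DESeq2. In bulk hearts, fewer muscle cells and less RNA per muscle cell cannot be told apart. Blood cell (haemocyte) markers moved with age in both strains: 5 of 8 were called lower in w1118 and 8 of 8 in attp2, with summed levels of 824 to 1424 CPM at 5 weeks against 2615 to 3243 CPM at 1 week in w1118, and 662 to 960 CPM against 2735 to 3749 CPM in attp2. Heart markers were called lower for 3 of 11 tested in w1118 (bap, tin and H15) and 5 of 11 in attp2 (Ork1, bap, Doc3, H15 and Sur). Gut markers summed to 72.6 to 234 CPM at 5 weeks against 56.3 to 73.1 CPM at 1 week in w1118, with Amy-d called higher and Mal-B1 lower. Of the fat body markers, fit was called higher in w1118, at 4.36-fold, and FASN1 lower in attp2, by a log2 difference of -1.04 ± 0.23. Without the 4 libraries with gut transcripts, 3 heart markers and 7 haemocyte markers were called lower in attp2. The part of these in the results on thin filament genes was not tested.

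**Figure D2:**
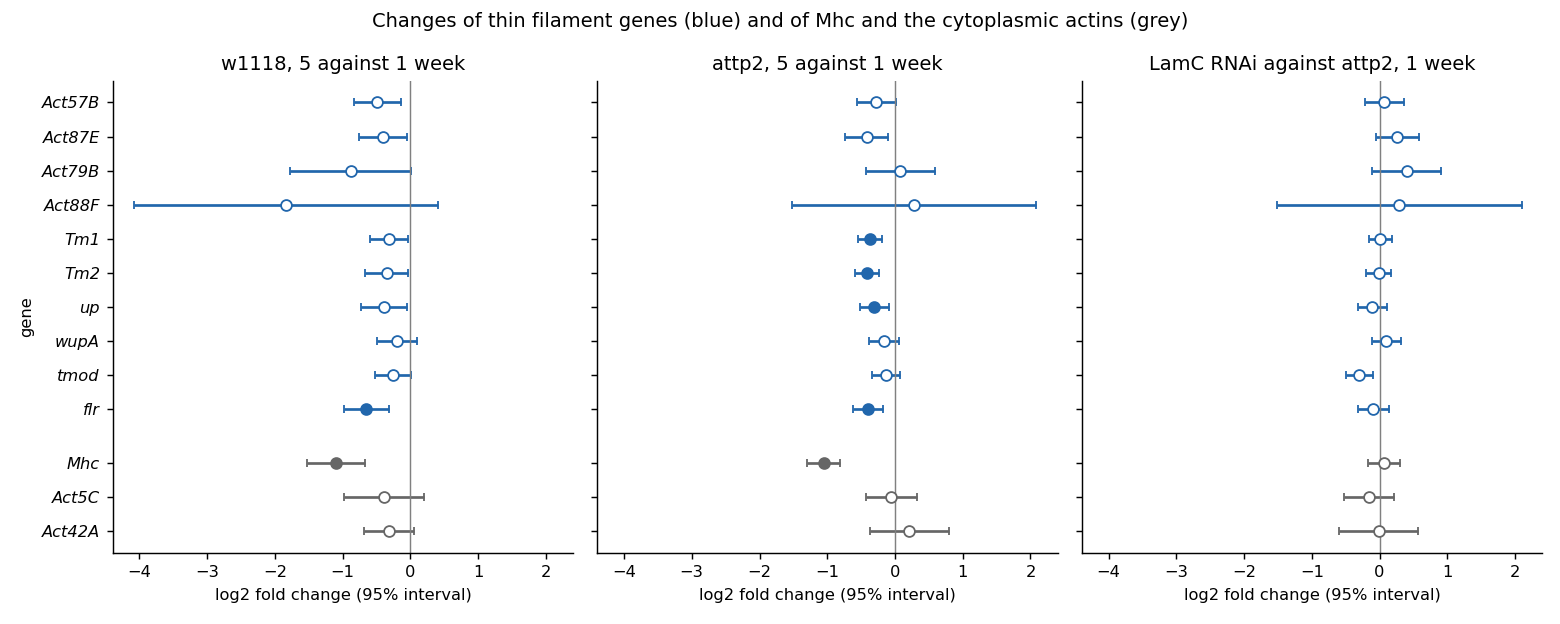
Log2 fold change of the 10 thin filament genes (blue), Mhc and the cytoplasmic actins (grey) in the 3 comparisons, with 95% intervals from the edgeR fit. Filled points passed the adjusted threshold. Most thin filament genes lie left of 0 with age and near 0 in the comparison of LamC RNAi with attp2, and the changes of Mhc with age are larger.

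The main muscle actin, Act57B, had 1928, 1364, 2137 and 1563 CPM in w1118 at 5 weeks, against 2686, 2337, 2334 and 2454 CPM at 1 week. Every library at 5 weeks lay below every library at 1 week, yet the older hearts spread 349 CPM around their mean (SD) and the log2 difference of -0.49 ± 0.15 (SE) missed the threshold (adjusted p = 0.0775). DESeq2 called it lower (adjusted p = 0.0178). In attp2, Act57B had 1511, 1234, 1207, 1226 and 1321 CPM at 5 weeks, against 1333, 1352, 1372, 1668 and 2139 CPM at 1 week. These groups overlapped, with a log2 difference of -0.27 ± 0.13 and an adjusted p of 0.174.

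Act87E, the second muscle actin, had 150, 111, 181 and 122 CPM in w1118 at 5 weeks, against 212, 176, 179 and 178 CPM at 1 week. Replicate 3 of the older hearts reached above 3 of the younger libraries, and the log2 difference of -0.40 ± 0.16 missed the threshold (adjusted p = 0.143), though without that library it was called (-0.55, adjusted p = 0.0427). In attp2 the gene had 118, 103, 89.1, 80.5 and 99.3 CPM at 5 weeks, against 115, 116, 110, 151 and 162 CPM at 1 week. Only replicate 1 of the older hearts reached into the younger range. The log2 difference was -0.42 ± 0.15 with an adjusted p of 0.0637 in edgeR and 0.0314 in DESeq2. In edgeR it was also called without replicate 1 at 5 weeks (adjusted p = 0.0482) or without LamC RNAi replicate 4 (0.0325).

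The actins of other muscles stayed at the bottom of the range. Act79B had 1.00, 2.72, 3.80 and 1.10 CPM in w1118 at 5 weeks, against 3.35, 3.76, 4.16 and 4.84 CPM at 1 week, so replicates 1 and 4 of the older hearts lay lowest while replicate 3 lay within the younger range. Its log2 difference of -0.88 ± 0.40 did not pass (adjusted p = 0.197), and in attp2 it was 0.08 ± 0.24 (adjusted p = 0.853). Act88F, the flight muscle actin, had 0.728, 0.707, 0.650 and 1.59 CPM in w1118 at 5 weeks, against 0.968, 0.389, 0.454 and 11.6 CPM at 1 week. A single library, replicate 4 at 1 week, set the fitted log2 difference of -1.84 ± 1.01 (adjusted p = 0.281), which was 0.59 without it. The flight muscle genes fln and TpnC4, encoding flightin and a troponin C, were at 3.87 and 2.02 CPM in that same library and at or near 0 in the other 3 of its group. The list of 4 flight muscle markers, which also holds salm and Strn-Mlck, went the other way as a sum. It was 177 CPM in that library, against 205 to 244 CPM in the other 3. In attp2, Act88F had 0.102, 0.135, 0.0966, 0.130 and 1.61 CPM at 5 weeks, against 0.477, 0.123, 0.377, 0.606 and 0.162 CPM at 1 week. Here replicate 5 of the older hearts stood apart, and the log2 difference of 0.28 ± 0.84 (adjusted p = 0.856) became -1.56 without it.

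The tropomyosin genes Tm1 and Tm2 lay lower at 5 weeks in both strains and passed the test in attp2. In attp2, Tm1 had 457, 416, 442, 408 and 426 CPM at 5 weeks, against 506, 512, 527, 555 and 678 CPM at 1 week. The groups did not overlap, and Tm1 fell by 22.7%, a log2 difference of -0.37 ± 0.08 (adjusted p = 0.00584). Tm2 had 496, 479, 423, 447 and 478 CPM at 5 weeks, against 565, 579, 558, 651 and 741 CPM at 1 week. It too did not overlap and fell by 24.9%, a log2 difference of -0.41 ± 0.09 (adjusted p = 0.00420). Both kept their call in each of 22 alternative settings, with adjusted p-values up to 0.0457 for Tm1 and 0.0326 for Tm2, both without the 4 libraries with gut transcripts.

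In w1118, Tm1 had 599, 455, 585 and 521 CPM at 5 weeks, against 702, 631, 630 and 721 CPM at 1 week, and Tm2 had 652, 467, 681 and 561 CPM against 835, 720, 697 and 763 CPM. For both genes the ranges of the ages did not meet. The log2 differences, -0.31 ± 0.13 for Tm1 and -0.35 ± 0.14 for Tm2, were close in size to those in attp2 and did not pass (adjusted p = 0.144 and 0.146).

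The troponin T gene up had 838, 803, 664, 703 and 806 CPM in attp2 at 5 weeks, against 833, 885, 866, 946 and 1172 CPM at 1 week. Only replicate 1 of the older hearts reached into the younger range, by a few CPM. The gene fell by 18.9%, a log2 difference of -0.30 ± 0.10 that lay close to the threshold (adjusted p = 0.0474). This call was kept in 8 of 22 alternative settings, and the adjusted p ran from 0.0157 with DESeq2 to 0.228 without the 4 libraries with gut transcripts, where the log2 difference was -0.23. The call was also lost without the filter on low counts (adjusted p = 0.0769) and with only the 2 groups compared (adjusted p = 0.0697). It was lost as well without attp2 at 1 week replicate 2, 3, 4 or 5, without attp2 at 5 weeks replicate 3, 4 or 5, and without LamC RNAi replicate 2, 3, 4 or 5, with adjusted p-values from 0.0508 to 0.109. In w1118, up had 890, 589, 909 and 729 CPM at 5 weeks, against 1105, 988, 922 and 1074 CPM at 1 week, with no overlap and a log2 difference of -0.39 ± 0.15 (adjusted p = 0.139).

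The troponin I gene wupA showed the smaller difference of the pair. In w1118 it had 647, 490, 676 and 580 CPM at 5 weeks, against 750, 647, 629 and 713 CPM at 1 week, and in attp2 it had 473, 406, 363, 393 and 445 CPM against 441, 433, 396, 475 and 587 CPM. The ages overlapped in both strains. Its log2 differences were -0.19 ± 0.13 in w1118 (adjusted p = 0.389) and -0.16 ± 0.10 in attp2 (adjusted p = 0.300), with 95% intervals of -0.49 to 0.10 and -0.38 to 0.05.

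Of the 2 genes that set filament ends and turnover, flr was called lower with age in both strains. In w1118 it had 147, 131, 145 and 107 CPM at 5 weeks, against 227, 209, 231 and 166 CPM at 1 week. No older library reached the lowest younger one, and flr fell by 36.2%, a log2 difference of -0.65 ± 0.15 (adjusted p = 0.0249). The call was lost, with adjusted p-values from 0.0656 to 0.0785 and log2 differences from -0.65 to -0.59, without w1118 at 1 week replicate 1, 2 or 3 or without w1118 at 5 weeks replicate 2. In attp2, flr had 88.8, 106, 102, 93.0 and 97.9 CPM at 5 weeks, against 138, 155, 116, 107 and 127 CPM at 1 week. Again the ages did not overlap. The gene fell by 24.1%, a log2 difference of -0.40 ± 0.11 (adjusted p = 0.0175), and the call held in 22 of 22 alternative settings, with adjusted p-values up to 0.0476.

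The tropomodulin gene tmod did not pass in either strain. In w1118 it had 282, 273, 293 and 284 CPM at 5 weeks, with the smallest SD relative to the mean of any member in any group, against 380, 356, 335 and 282 CPM at 1 week. The groups overlapped through replicate 4 of the younger hearts, and the log2 difference was -0.26 ± 0.12 (adjusted p = 0.204). In attp2 it had 225, 240, 196, 177 and 208 CPM at 5 weeks, against 227, 221, 205, 220 and 269 CPM at 1 week, a log2 difference of -0.13 ± 0.09 (adjusted p = 0.385).

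An interaction term fitted on the 18 libraries of w1118 and attp2 asked if the effect of age differed by strain. It passed for 0 of 10 members in edgeR's quasi-likelihood test, 0 had an unadjusted p under 0.05, and DESeq2 likewise called 0, where 0.761% of 10387 genes were called by edgeR. For Tm1 and Tm2, the age effect in attp2 minus that in w1118 was -0.03 (95% interval -0.34 to 0.28) and -0.04 (-0.39 to 0.31) on the log2 scale. For flr it was 0.27 (-0.09 to 0.64) and for Act57B 0.24 (-0.23 to 0.70). These intervals reach values close to the age effects themselves, so neither equal nor unequal effects are shown by them. Levels were not compared between the strains, because strain and table cannot be told apart.

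Between the libraries labelled LamC RNAi and attp2 at 1 week, no thin filament gene passed the edgeR test. In edgeR's quasi-likelihood test 0 of 10 members passed, where 0.866% of all genes tested were called higher and 1.54% lower. A single member, tmod, had an unadjusted p under 0.05, and DESeq2 called 1 lower (tmod), as it did 4.1% of all genes. The median log2 fold change of the members was 0.04, against 0.03 over all genes. The comparison uses the same attp2 libraries at 1 week as the comparison of ages, so the values of both are not independent of each other. Haemocyte markers were higher for 2 of 8 genes (Sr-CI and NimC1), with summed levels of 3565 to 5674 CPM in the libraries labelled LamC RNAi against 2735 to 3749 CPM in attp2. Heart markers were called lower for 2 of 11 tested (tin and bap). Only 4 of the 11 had a log2 fold change below 0, and the median of that list was 0.08. Without the 4 libraries with gut transcripts the haemocyte calls were the same 2 and 0 heart markers were called. Their part in the results on thin filament genes was not tested.

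The tropomodulin gene tmod had 179, 203, 171, 173 and 203 CPM in the libraries labelled LamC RNAi, against 227, 221, 205, 220 and 269 CPM in attp2 at 1 week. It was the only member whose groups did not overlap, which held for 2.83% of all genes in the lower direction. The log2 difference of -0.30 ± 0.09 (95% interval -0.50 to -0.09) missed the threshold in edgeR (adjusted p = 0.115) and passed in DESeq2 (adjusted p = 0.0420). Over 22 alternative settings the adjusted p ran from that value to 0.227.

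Act57B had 1407, 1627, 1599, 1936 and 1697 CPM in the libraries labelled LamC RNAi, a log2 difference from attp2 at 1 week of 0.07 ± 0.13 (95% interval -0.21 to 0.36, adjusted p = 0.816). Act87E had 137, 137, 148, 211 and 150 CPM, with replicate 4 well above the others of its group, and differed by 0.26 ± 0.15 (adjusted p = 0.362). The tropomyosins lay closest to their controls: Tm1 had 511, 576, 564, 588 and 567 CPM and Tm2 574, 654, 571, 643 and 630 CPM. Their 95% intervals were -0.16 to 0.19 for Tm1 and -0.19 to 0.17 for Tm2. For flr, with 126, 136, 99.1, 130 and 111 CPM, the interval was -0.32 to 0.14.

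The low actins were also within their spread. Act79B had 1.30 to 2.92 CPM in the libraries labelled LamC RNAi and 1.31 to 2.19 CPM in attp2 at 1 week (log2 difference 0.40 ± 0.24, adjusted p = 0.378). Act88F had 0.134 to 0.810 CPM in the libraries labelled LamC RNAi and 0.123 to 0.606 CPM in attp2 at 1 week (0.29 ± 0.84, adjusted p = 0.895).

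Ratios between members within a library do not depend on how libraries are scaled. Of the 5 ratios examined, that of troponin T to troponin I counts, up over wupA, passed the exact test. On the log2 scale it was 0.46, 0.27, 0.43 and 0.33 in w1118 at 5 weeks, against 0.56, 0.61, 0.55 and 0.59 at 1 week. All older libraries lay lower, and the means differed by -0.21 ± 0.05 (SE), with a two-sided exact permutation p of 0.0286, the smallest that 4 against 4 libraries allow. In attp2 it was 0.83, 0.98, 0.87, 0.84 and 0.86 at 5 weeks, against 0.92, 1.03, 1.13, 0.99 and 1.00 at 1 week. Only replicate 2 at 5 weeks overlapped the younger range, and the means differed by -0.14 ± 0.04 (exact p = 0.0159). Without the libraries with gut transcripts the difference was -0.10 (exact p = 0.114, in a design of 3 against 4 libraries whose smallest p is 0.0571).

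In the libraries labelled LamC RNAi the same log2 ratio was 0.74, 0.86, 0.82, 0.76 and 0.83, against the values of attp2 at 1 week just given. All 5 RNAi libraries lay below all 5 controls, and the means differed by -0.21 ± 0.04 (exact p = 0.00794, the smallest that 5 against 5 libraries allow). Without the libraries with gut transcripts it was -0.19 (exact p = 0.0286, again the smallest possible). Neither up nor wupA alone was called in this comparison, with log2 differences of -0.11 ± 0.10 and 0.10 ± 0.10. Both attp2 comparisons rest on the same libraries at 1 week. The p-values are without adjustment over the 15 ratio tests, of which 3 had p under 0.05, all of them of up over wupA.

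The other 4 ratios did not pass. Act87E over Act57B differed by 0.08 ± 0.04 on the log2 scale with age in w1118 (exact p = 0.114), by -0.15 ± 0.07 with age in attp2 (exact p = 0.0635) and by 0.17 ± 0.08 between LamC RNAi and attp2 at 1 week (exact p = 0.0635). Tm1 over Tm2 differed by 0.05, 0.04 and 0.02 in the same 3 comparisons, with a mean log2 ratio between -0.17 and -0.11 in every group. Act79B and Act88F over Act57B varied most between libraries, with SDs of 0.28 to 0.97 and 0.76 to 2.24 on the log2 scale within groups.

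**Figure D3:**
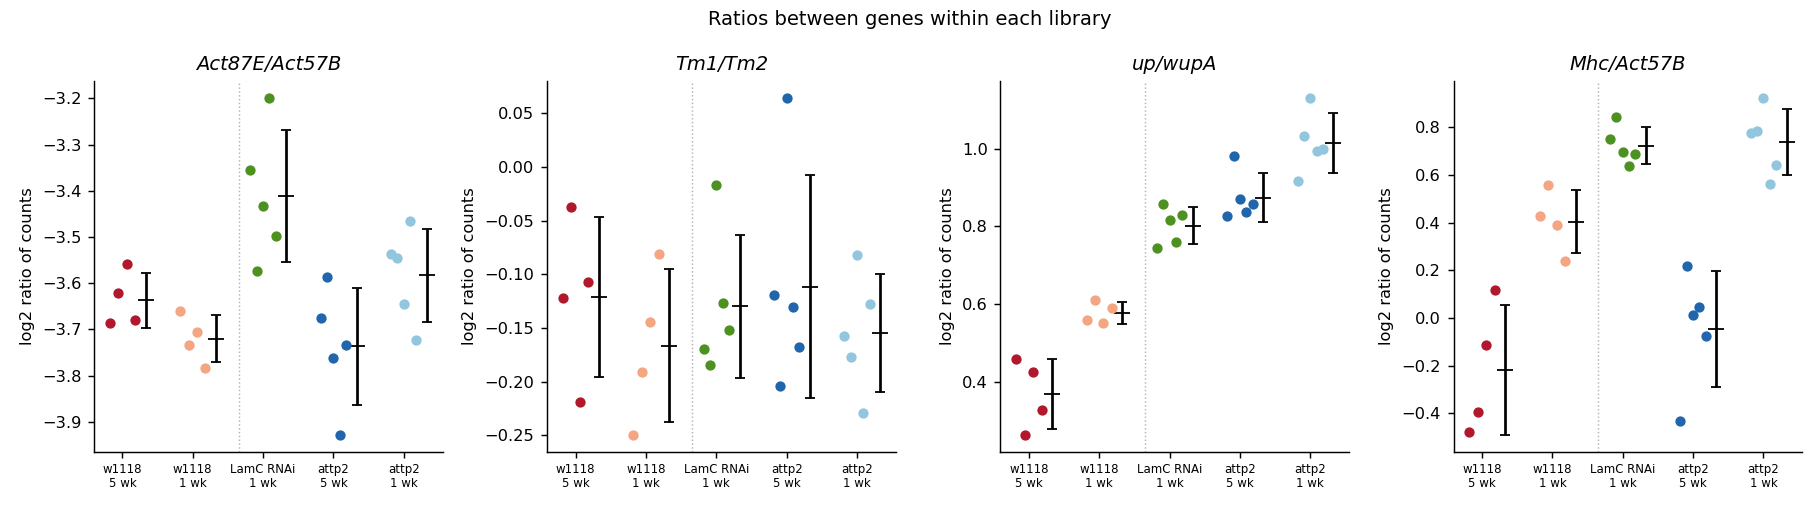
Log2 ratio of counts of gene pairs within each library (points), with the group mean and SD to their right. The ratio of up over wupA lies lower at 5 weeks than at 1 week in each strain and lower in the libraries labelled LamC RNAi than in attp2 at 1 week, and Mhc over Act57B lies lower at 5 weeks.

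Among the partners of the thin filament were genes with larger falls with age than those of the members called. Of the troponin C genes, which encode the calcium sensor, 2 of 3 tested fell in w1118 and 2 of 4 in attp2, where 3.7% and 10.5% of all genes were called lower. TpnC47D had 58.8, 41.5, 57.7 and 54.0 CPM in w1118 at 5 weeks, against 143, 140, 128 and 160 CPM at 1 week, a log2 difference of -1.43 ± 0.14 (adjusted p = 0.000558). In attp2 it had 18.5, 26.5, 22.9, 35.0 and 15.5 CPM at 5 weeks, against 59.3, 71.6, 73.5, 78.6 and 87.4 CPM at 1 week. TpnC25D had log2 differences of -0.76 ± 0.20 in w1118 and -0.89 ± 0.13 in attp2. Its call in w1118 was lost (adjusted p up to 0.111) without any 1 of the libraries at 1 week, or without replicate 2 or 4 at 5 weeks. TpnC73F had 0.30 ± 0.15 and 0.04 ± 0.13 and did not pass. The fall of TpnC47D in attp2 was -1.64 ± 0.19 on the log2 scale (adjusted p = 6.82e-05). TpnC47D was also called higher in the libraries labelled LamC RNAi, where it had 121, 134, 139, 156 and 117 CPM and every library lay above the attp2 libraries at 1 week. That log2 difference was 0.85 ± 0.18 (adjusted p = 0.0255). Without the 4 libraries with gut transcripts it was 0.83 and no longer called (adjusted p = 0.0596). The call was also lost without attp2 at 1 week replicate 1, 2, 3 or 4 or without LamC RNAi replicate 3, with adjusted p-values from 0.0507 to 0.0660.

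Among 7 thick filament genes tested, 4 fell with age in w1118 and 5 in attp2, beside the same shares of all genes, and 0 passed in the libraries labelled LamC RNAi, where 1 had an unadjusted p under 0.05 and DESeq2 likewise called 0. The median log2 fold change of the list was -0.58 in w1118 and -0.57 in attp2, beside -0.40 and -0.29 for the thin filament members. Mhc, the only gene of muscle myosin heavy chain in the fly, had a log2 difference of -1.10 ± 0.19 in w1118 (adjusted p = 0.00875) and -1.05 ± 0.11 in attp2 (adjusted p = 4.71e-05). Unc-89, which encodes the M-line protein obscurin, had -1.22 ± 0.22 and -1.0 ± 0.13. In w1118, the calls of Mhc and Unc-89 held in 13 of 13 alternative settings. The other thick filament calls in w1118 held in 8 and 7 of 13, with adjusted p-values up to 0.0803 and 0.0969. Those calls were lost when single libraries were left out. As a description, for a ratio chosen after the values were seen, the log2 ratio of Mhc to Act57B counts was -0.48, -0.40, -0.11 and 0.12 in w1118 at 5 weeks, against 0.43, 0.56, 0.39 and 0.24 at 1 week. In attp2 it was -0.43, 0.22, 0.01, 0.05 and -0.08 at 5 weeks, against 0.78, 0.79, 0.92, 0.56 and 0.64 at 1 week. Older libraries thus held fewer Mhc reads per Act57B read than any younger library of their strain, while LamC RNAi, at 0.64 to 0.84, lay within the range of its controls.

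Z-disc genes, which anchor the barbed ends of thin filaments, were lower for 1 of 6 tested in w1118 (Actn, encoding alpha-actinin, -0.58 ± 0.15, adjusted p = 0.0400) and for 5 of 6 in attp2. Of all genes tested, 3.7% were called lower in w1118 and 10.5% in attp2. DESeq2 called 4 Z-disc genes lower in w1118 and 5 in attp2, against 7.61% and 13.9% of all genes with an adjusted p. The call of Actn in w1118 was lost (adjusted p up to 0.111) without replicate 1, 2 or 3 at 1 week or replicate 1, 2 or 4 at 5 weeks. The largest falls of Z-disc genes in attp2 were those of the muscle LIM protein genes Mlp60A (-0.83 ± 0.11) and Mlp84B (-0.76 ± 0.07). In the libraries labelled LamC RNAi 0 of 6 passed in edgeR, with 2 at an unadjusted p under 0.05, and DESeq2 called 1 higher (Mlp60A). Of 9740 genes with an adjusted p, DESeq2 called 692 there in either direction, 399 of them lower.

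Of 10 genes of filament assembly and actin turnover tested, 2 were called lower in each strain, against 3.7% of all genes in w1118 and 10.5% in attp2, and 1 was called higher in attp2, against 9.6% of all genes. The genes called lower were the formin gene Fhos and sals, whose product promotes elongation at the pointed end. Fhos had log2 differences of -0.74 ± 0.14 in w1118 and -0.42 ± 0.14 in attp2, and sals -0.67 ± 0.16 and -0.57 ± 0.10. The call of Fhos in attp2 was kept in 11 of 22 alternative settings (adjusted p up to 0.112). It was lost without the filter on low counts, with only the 2 groups compared, and without attp2 at 1 week replicate 3, 4 or 5, attp2 at 5 weeks replicate 1, 2 or 5 or LamC RNAi replicate 1, 2 or 5. The call of sals in w1118 was lost without w1118 at 1 week replicate 1, 2 or 3 or w1118 at 5 weeks replicate 1 (adjusted p up to 0.0912). The gene called higher in attp2 was cib, encoding ciboulot, a small actin monomer binding protein. It had 371, 300.1, 269, 244 and 351 CPM at 5 weeks, against 159, 204, 118, 145 and 156 CPM at 1 week, a log2 difference of 0.97 ± 0.15 (adjusted p = 0.000528). In w1118 cib had a log2 difference of 0.37 ± 0.21 (adjusted p = 0.291), and the strains' effects did not differ past the threshold (adjusted p = 0.289). DESeq2 called Fhos and sals lower in both strains, against 7.61% of all genes in w1118 and 13.9% in attp2. In attp2 it called chic higher as well as cib. Of 9740 genes with an adjusted p, DESeq2 called 2546 there in either direction, 1351 of them lower. In edgeR chic missed the threshold there (0.25 ± 0.08, adjusted p = 0.0506), with every library at 5 weeks above every library at 1 week. In the libraries labelled LamC RNAi 0 of 10 passed in edgeR or DESeq2, and 1 (cib) had an unadjusted p under 0.05.

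The cytoplasmic actins, which are found in nearly all cells, did not pass in any comparison, in edgeR or DESeq2. Act5C had log2 differences of -0.39 ± 0.27 in w1118, -0.05 ± 0.17 in attp2 and -0.16 ± 0.17 in the libraries labelled LamC RNAi. Those of Act42A were -0.32 ± 0.17, 0.21 ± 0.27 and -0.01 ± 0.27. Of 6 muscle gene regulators tested, such as Mef2 and the splicing factors bru1 and mbl, 0 passed in each comparison by edgeR or DESeq2, with 1 at an unadjusted p under 0.05 in each by edgeR.

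**Figure D4:**
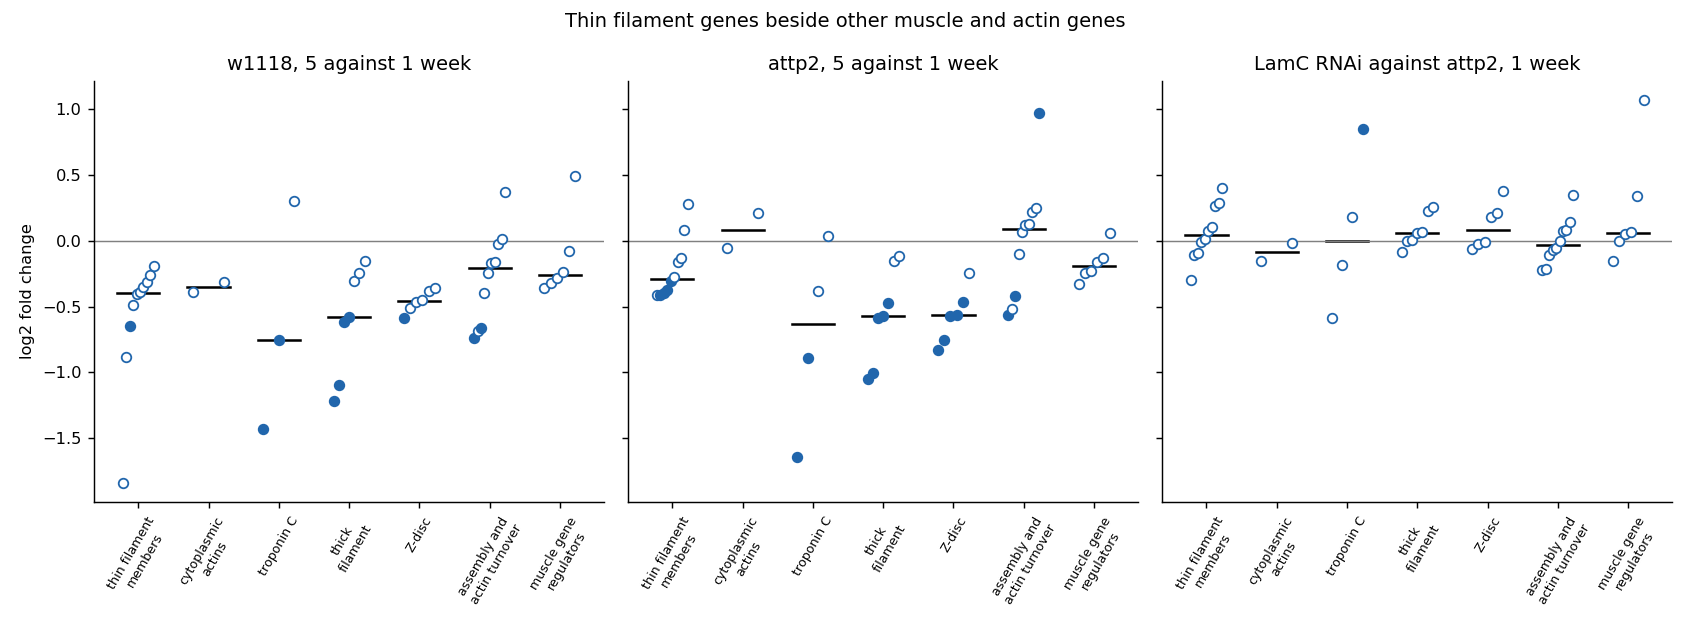
Log2 fold change of each gene tested (points) in the thin filament list and in 6 related lists for the 3 comparisons, with the median of each list as a line. Filled points passed the adjusted threshold. The lowest points with age are TpnC47D, Mhc and Unc-89, and, in w1118, the low and variable Act88F.

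Across the 23 libraries, the members fell into genes that varied together and genes that did not. Likeness was measured as the root mean square difference of log2 CPM, each gene centred within its table, over 9444 genes tested in both tables. It is a description, and libraries share depth and tissue makeup. Tm1 and Tm2 were each other's nearest member (0.07), and the gene outside the list nearest to both was Mlc2, a myosin light chain gene, at 0.08 from Tm1 and 0.04 from Tm2. The median over all genes was 0.36 for Tm1 and 0.38 for Tm2. Among the 50 genes nearest to each of Tm1, Tm2, up and wupA stood 4 other members, and 5 stood among those nearest to Act57B and to Act87E. For tmod, flr, Act79B and Act88F there were 0. The gene nearest to up was Asph (0.10), to wupA Tsp42Eg (0.09), to Act57B CG45076 (0.13), to Act87E CG43897 (0.14), to tmod Efa6 (0.12) and to flr fliI (0.13). Act79B and Act88F had no near neighbour, at 0.39 (CG11652) and 0.97 (CG4409).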

How the data were processed

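Hearts were dissected, RNA was extracted with a miRNeasy kit and libraries were made with a stranded TruSeq mRNA kit, per the labels' protocols. Per the submitters' processing notes, cutadapt, STAR and DESeq2 and the dm6 build were used, while versions, counter, strand setting and annotation are not given in those sources. Raw counts per gene symbol were what the authors deposited in 2 tables, of 8 w1118 and of 15 attp2 and LamC RNAi libraries. They also deposited log2 values, which, checked against the counts, were log2 of the count over the DESeq2 size factor, plus 1, and these were not used for tests.

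Counts were tested with edgeR 4.0.16 in R 4.3.3 (filterByExpr, TMM scaling, quasi-likelihood test, two-sided, Benjamini-Hochberg adjustment over all genes tested, threshold 0.05), each table in one fit, and the difference between strains as an interaction over the 18 control libraries. CPM are on the TMM scale of each table, and SE is the log2 fold change over the square root of F. Log2 count ratios were compared by two-sided exact permutation tests. Likeness used log2 CPM with a prior count of 2. The edgeR test was checked on simulated counts for the 3 comparisons of 2 groups, with some genes changed 2-fold. Smaller changes and the interaction were not part of that check. No pair of libraries of a group agreed within sampling noise, with a chi-square per gene of at least 62.9. Every deposited symbol row was kept. Gene positions and exon lengths come from the BDGP6.54 annotation, matched by symbol. Counting error limits the precision mainly for Act79B and Act88F, which had as few as 22 and 5 counts in a library.

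All 10 members are named, and from each related list at most 2 genes per direction and comparison, those called with the largest change, plus Mhc and the cytoplasmic actins. TpnC73F, Mlc2, chic, Mef2, bru1 and mbl are named outside that rule. TpnC73F was named after its values were seen, Mlc2 by the likeness rule and chic for its DESeq2 call. Mef2, bru1 and mbl are examples of their list. The members and lists were chosen with earlier results of these data known. Alternatives were DESeq2 1.42.0, its size factors, no filter on low counts, a filter at 5 CPM, a replicate block, only the 2 groups compared and each library left out. Leaving out the 4 libraries with gut transcripts, and levels per kilobase of the longest transcript, were added after seeing the data.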

Additional observations from a re-analysis of the deposited data

Results flagged for a closer look

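Of 75 sets of values of a member or of a ratio between members within a group, 8 held a library that stood far from the others (a gap over the range above Dixon's 95% critical value), where chance picks out about 1 in 20. Act88F gave 4 of them. Its level was 1.59 CPM in w1118 at 5 weeks replicate 4, against 0.650 to 0.728 CPM in the others of that group. It was 11.6 CPM in w1118 at 1 week replicate 4, against 0.389 to 0.968 CPM. There fln and TpnC4 were also highest, while the sum of the 4 flight muscle markers was the lowest of its group (177 CPM). In attp2 at 5 weeks replicate 5 Act88F was 1.61 CPM, against 0.0966 to 0.135 CPM, and the log2 ratio of Act88F to Act57B there was -9.68, against -13.9 to -13.2.

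Act87E reached 212 CPM in w1118 at 1 week replicate 1, against 176 to 179 CPM, and 211 CPM in the libraries labelled LamC RNAi, replicate 4, against 137 to 150 CPM. Tm1 reached 678 CPM in attp2 at 1 week replicate 5, against 506 to 555 CPM, a library in which 7 of the 10 members had the highest value of their group. The log2 ratio of up to wupA was 0.982 in attp2 at 5 weeks replicate 2, against 0.826 to 0.869.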

How the results depend on the processing

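The members called lower with age in attp2 numbered 3 to 5 when single libraries were left out, against 4. With age in w1118 they numbered 0 to 3 when single libraries were left out, against 1, with 0 without w1118 at 1 week replicate 1, 2 or 3 or w1118 at 5 weeks replicate 2, and 3 (Act57B, Act87E and flr) without w1118 at 5 weeks replicate 3. DESeq2 called 2 (Act57B and flr) there and 1 (tmod) in the libraries labelled LamC RNAi, against 0. Over all genes, 858 were called in w1118 (1577 with DESeq2, 298 to 1085 with a library left out), 2018 in attp2 (1478 to 2263), 242 in the libraries labelled LamC RNAi (692 with DESeq2, 132 with only the 2 groups compared, 75 without the gut libraries, 103 to 395 with a library left out) and 79 in the interaction (418 with DESeq2, 133 at 5 CPM, 176 with the replicate block, 11 to 271 with a library left out).

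Pairing of same-numbered libraries was neither shown nor excluded (correlations from -0.01 to 0.15 in w1118, -0.14 to 0.85 with age in attp2 and 0.07 to 0.60 in the libraries labelled LamC RNAi). Libraries matched best with their own number in 2 of 4 pairs in w1118 and in 2 of 5 in each attp2 comparison. Other ways of pairing were not tested. With the replicate block, genes called numbered 898, 2337 and 293, and each member kept its call or lack of one.

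Reversals fell on differences near 0 or on the low actins. With age in attp2 these were Act88F (-0.46 with the replicate block, -1.56 to 0.57 with a library left out), Act79B (-0.048 without the gut libraries, -0.012 to 0.19 with a library left out) and the log2 ratio of Act88F to Act57B (0.27 without the gut libraries). In w1118 it was Act88F (-2.27 to 0.59). In the libraries labelled LamC RNAi they were Tm1 (-0.0070 without the gut libraries, -0.018 to 0.095 with a library left out), Tm2 (-0.046 to 0.062) and Act88F (-0.088 to 0.58). In the interaction they were Act87E (-0.024 without the filter, -0.091 to 0.16 with a library left out), Act88F (-0.21 with the block, -0.29 to 2.58), Tm1 (-0.11 to 0.056), Tm2 (-0.14 to 0.044), up (-0.0022 to 0.21) and wupA (-0.033 to 0.16). With a library left out, the log2 ratio of Act88F to Act57B ran from -0.48 to 1.13 in w1118 and -0.21 to 0.45 in the libraries labelled LamC RNAi, and that of Tm1 to Tm2 from -0.00060 to 0.067 in attp2 and -0.0034 to 0.043 in the libraries labelled LamC RNAi. The cause was not tested. The ratio of up to wupA kept its direction in each setting (-0.24 to -0.17 in w1118, where 3 against 4 libraries cannot give an exact p under 0.0571, -0.17 to -0.11 in attp2 and -0.24 to -0.18 in the libraries labelled LamC RNAi, with a library left out), and was -0.10 in attp2 without the gut libraries (exact p = 0.114). That of Act87E to Act57B passed the threshold with age in attp2 without attp2 at 5 weeks replicate 2 or at 1 week replicate 5 (exact p = 0.0317 each), and between LamC RNAi and attp2 without LamC RNAi replicate 2 (0.0317) or attp2 at 1 week replicate 4 (0.0476).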
